A study of Danio rerio with 2 samples.

Results

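Isolated narrow RNA polymerase II (Pol II) peaks are single, short stretches of Pol II-bound chromatin that stand far from any other bound stretch. They were taken from the list of Pol II peaks of zebrafish embryos at 4 h post-fertilization (hpf), by 3 conditions. A member lay on an assembled chromosome other than chromosome 4, was narrower than 5000 bp and had no other peak of the list within 10000 bp of either end. Of 20243 peaks in the list, 2686 met these conditions, or 13.3%. They made up 79.8% of the 3368 isolated peaks of the whole list. The remaining isolated peaks were 236 of 5000 bp or more on the same chromosomes, 306 narrow peaks on chromosome 4, 116 narrow peaks on unplaced scaffolds and 24 of 5000 bp or more on chromosome 4 or scaffolds.

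The study followed chromatin architecture through early zebrafish development. Of its chromatin immunoprecipitation and sequencing (ChIP-seq) at 4 hpf, 2 samples are described here, and the study's Rad21 ChIP-seq at this stage is not. Both came from untreated embryos of the wild-type strain WT Tubingen, pooled after removal of chorion and yolk, so every peak is an average over the cells of many embryos. One sample was immunoprecipitated with the Pol II antibody 8WG16, and its labels name 2 libraries, which the study's methods give as biological replicates. The other was the input chromatin, and no file of it was used here. The peaks form 1 pooled list without values for single libraries, so the differences below have no error between replicates, and read depth is unknown.

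Pol II transcribes protein-coding genes and many small noncoding RNA genes. It gathers at promoters, may pause just downstream of the start site and then spreads along the gene body during elongation, so ChIP-seq can show sharp peaks at start sites and wider domains over long transcribed genes. The antibody 8WG16 recognises the repeated tail of the largest subunit and is known to favour its unphosphorylated form. The zebrafish genome is largely silent until zygotic genome activation, which is under way at 4 hpf. Peaks are reported by position in the zebrafish build GRCz10, counted from 1 at the start of the chromosome, since no annotation of the genome build of the list was used here, and whether a peak lies at a promoter, an enhancer or a repeat is not given.

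Each peak has 2 bounds, a score and a summit, the point of highest signal. The score was read as 10 times the highest −log10 q value in the peak. It measures significance over input and local background, not fold enrichment, and its lowest value in the list was 20. Width and distance chose the members, and score and summit came from the same immunoprecipitate. All values are therefore descriptions, with no test. Intervals are exact 95% intervals that cover counting error only, and neighbouring peaks are not independent.

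Among narrow peaks on the 24 chromosomes, a minority stood alone. Members were 2686 of 15281 narrow peaks, or 17.6% (Clopper-Pearson interval 17.0 to 18.2). This share depended on the settings, from 13.2% with a 20 kb limit to 25.4% with peaks within 500 bp merged. Of the 1437 peaks of 5000 bp or more on these chromosomes, 16.4% (14.5 to 18.4) were isolated. These intervals overlap, but they cover counting error only and are no test of a difference. The members covered 2172 kb, or 6.82% of the sequence under Pol II peaks on these chromosomes, while the 12595 clustered narrow peaks, those with a neighbour within 10 kb, covered 47.9%.

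Isolated narrow peaks were short. Their width ranged from 300 to 4980 bp, with a median of 570 bp (quartiles 410 and 960 bp). Clustered narrow peaks had a median of 830 bp (quartiles 480 and 1590 bp). Widths below 400 bp were found in 22.6% of members and in 15.0% of clustered peaks. Widths of 2000 bp or more were found in 5.66% of members (4.82 to 6.60) and 17.6% of clustered peaks (17.0 to 18.3). The median was lower for isolated than for clustered peaks on each of the 24 chromosomes, where it ranged from 520 to 660 bp for members and from 695 to 930 bp for clustered peaks. A width of 300 bp was also the lowest among clustered narrow peaks, where 299 had it. The narrowest members, at this width, numbered 103. The highest scores among these were 103 on chromosome 10 (40238501 to 40238800), 100 on chromosome 18 (24381 to 24680) and 93 on chromosome 19 (44421851 to 44422150).

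Isolated peaks, although narrower, had a higher median score than clustered narrow peaks as a whole, but not than those in clusters of 2. The median was 86 (quartiles 54 and 157, 95% interval of the median 82 to 87) for members and 66 (43 and 132, interval 64 to 67) for clustered narrow peaks. Clustered narrow peaks in clusters of 2 peaks had a median of 85 (80 to 91, n = 1876), and their upper quartile, 167, was above that of the members. Those in clusters of 10 or more had a median of 60 (59 to 61). The isolated median exceeded that of all clustered narrow peaks on all 24 chromosomes, by 5 to 43.5. The comparison with clusters turned around when each cluster was represented by its highest scoring narrow peak alone. Those best peaks had a median of 185, against 86 for the members. A best peak is the highest of several by construction.

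The score gap to clustered peaks as a whole held at equal width. Under 400 bp the median score was 58 for 607 members and 39 for 1889 clustered peaks. From 500 to under 750 bp it was 87 for 663 members and 51 for 2419 clustered peaks, and from 2000 to under 5000 bp it was 258 for 152 members and 171 for 2220 clustered peaks. Over the 6 width classes, the isolated median was 1.48 to 1.71 times the clustered one. Score and width rose together across members (Spearman's rho 0.512 over 2686 peaks) and across clustered peaks (0.666 over 12595). Both are derived from the same q values, and peaks are not replicates.

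**Figure D1:**
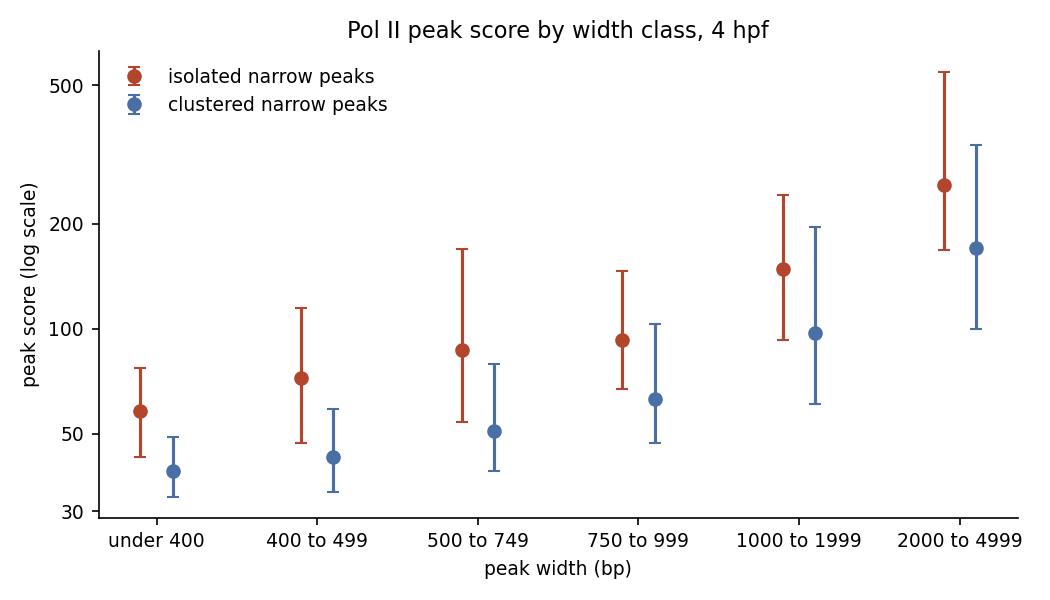
Peak score (log axis) in 6 classes of peak width for isolated (red) and clustered (blue) narrow Pol II peaks; points are medians and bars run from the lower to the upper quartile. In every class the isolated median is higher, from 58 against 39 under 400 bp to 258 against 171 from 2000 to under 5000 bp.

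Isolation was most frequent at intermediate scores and less so at both ends. Of narrow peaks with scores of 20 to under 30, 8.21% were isolated. The share was 23.4% at scores of 100 to under 200 and 13.0% (9.62 to 17.0) at 1000 or more. Members with scores of 1000 or more numbered 45, or 1.68% of members (1.22 to 2.24), against 2.40% of clustered peaks (2.14 to 2.68). They were also 45 of the 1000 highest scoring peaks of the whole list, and members were 13.3% of all peaks. That comparison is unlike, because the width limit leaves out peaks of 5000 bp or more. On the same chromosomes these had median scores of 1187 (isolated) and 532 (clustered). Among narrow peaks alone, the shares are the 13.0% above and 17.6% over all scores. At the low end, 1.60% of members and 3.82% of clustered peaks scored under 30.

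The highest scoring isolated peaks were few and lay on several chromosomes. The 10 highest scores ranged from 2932 to 13975, on 6 chromosomes, in peaks of 630 to 4880 bp. Only 3 members scored above 10000. The highest, 13975, was reached in a peak of 2570 bp on chromosome 6 (52302811 to 52305380), with its nearer neighbour 30.7 kb away. The next, 12322, was reached in only 630 bp on chromosome 10 (4469701 to 4470330). Its summit stood at the exact centre, and no other peak lay within 423 kb on either side. The third, 11016, was also on chromosome 10 (22877451 to 22878930), 1480 bp wide and 23.7 kb from the nearer peak.

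The other 7 of the 10 scored 5072 or less. On chromosome 11 (2223041 to 2227790) a peak of 4750 bp scored 5072, with its summit at 88.1% of the width. On chromosome 14 (7392561 to 7395370) a peak of 2810 bp scored 4497, with its summit at 50.4%. A peak of 1250 bp on chromosome 10 (30023991 to 30025240) scored 4092 and had no further peak for 2090 kb to its right. These peaks differed in shape as well as in score, with summits between 27.7% and 88.1% of the width from the left bound. The remaining peaks were 2 on chromosome 6 (30385301 to 30387060, score 3367, and 6113331 to 6117800, score 2932), 1 on chromosome 1 (46136971 to 46141850, score 3366) and 1 on chromosome 7 (6104091 to 6105910, score 3127).

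Summits of isolated peaks were central, and the more so the shorter the peak beyond the smallest widths. The summit fell between 25% and 75% of the width in 75.8% of members (74.1 to 77.4) and in 66.8% of clustered narrow peaks (65.9 to 67.6). In the members this share was 77.4% under 400 bp, 89.8% from 400 to under 500 bp (86.6 to 92.4), 61.4% from 1000 to under 2000 bp and 52.6% from 2000 to under 5000 bp (44.4 to 60.8). A summit within 10% of the width from either bound was found, over all widths, in 2.72% of members and 5.52% of clustered peaks. Within the members it was found in 11.8% (7.17 to 18.1) of those of 2000 bp or more and in 1.47% to 3.46% of those in the narrower classes. The list carries no strand, so left and right follow the reference sequence only. Summits lay left of the centre in 49.9% of members (47.9 to 51.8) and right of it in 48.2%.

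A compact, centred kind of peak made up a larger share of isolated than of clustered peaks. This group was defined after the values were seen, as peaks of 500 to 590 bp with the summit within 5% of the width from the centre. It held 192 members, or 7.15% (6.20 to 8.19), and 341 clustered peaks, or 2.71% (2.43 to 3.01). The compact members had a median score of 184.5 (quartiles 100 and 250), and 145 of them, or 75.5%, scored 100 or more. The 168 members of the same width with an off-centre summit had a median score of 56 (quartiles 42.8 and 91.5), and 22.6% scored 100 or more. Clustered peaks of this compact shape had a median of 63, and the 31 of them 5 to 10 kb from the nearer peak had 144. At widths of 500 to 590 bp, 91 of 104 members with a score of 200 or more were centred, or 87.5% (79.6 to 93.2). Of the 256 with lower scores, 39.5% (33.4 to 45.7) were centred. Clustered narrow peaks of these widths showed the same order, with 70.4% (58.4 to 80.7) of 71 and 26.7% (24.1 to 29.5) of 1089.

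In bins of 40 bp the centred share peaked at 540 to 579 bp, where 64.0% of 164 members and 36.0% of 464 clustered peaks had a centred summit. In the bins beside it, 44.4% of members were centred at 500 to 539 bp and 37.3% at 580 to 619 bp. Farther out the share was 23.8% of members from 460 to under 500 bp and 17.6% at 620 to 659 bp. The median score of members at 540 to 579 bp was 122.5, against 85 and 81.5 in the bins beside it. The clustered median there was 53.

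**Figure D2:**
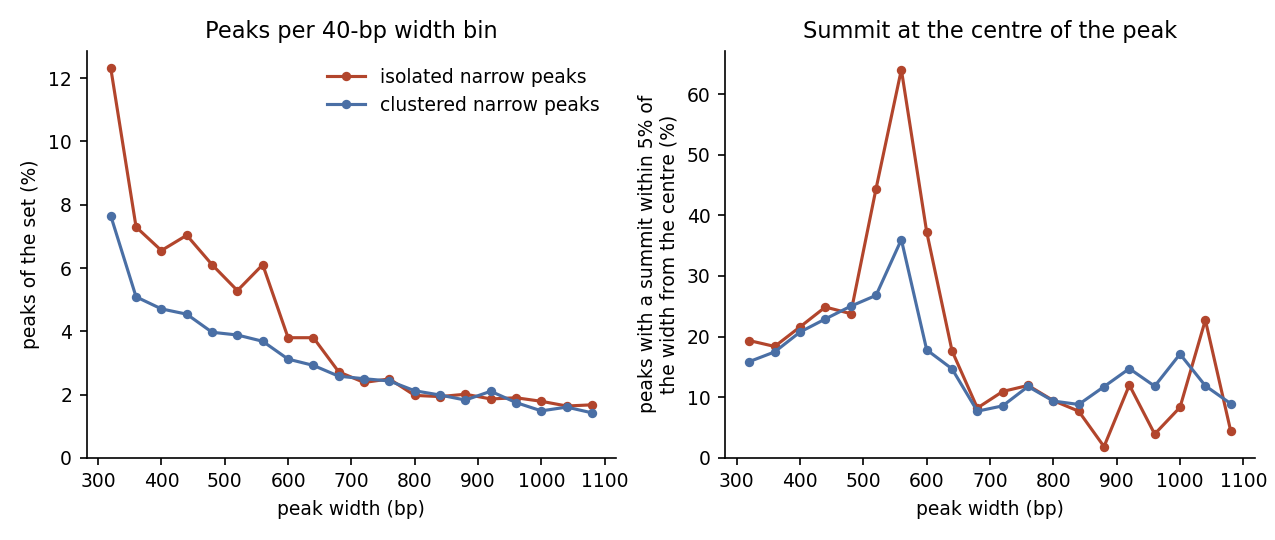
Left, share of isolated (red) and clustered (blue) narrow peaks in each 40-bp bin of width from 300 to 1099 bp; right, share of the peaks in each bin whose summit lies within 5% of the width from the centre. Both sets show a maximum of centred summits at 540 to 579 bp, 64.0% in isolated and 36.0% in clustered peaks.

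Compact centred peaks were found on every one of the 24 chromosomes, from 3 on chromosomes 21 and 24 to 15 on chromosome 17. They made up 14.7% of the members of chromosome 17, the largest share. Their share was higher among isolated than among clustered peaks on 23 chromosomes, the exception being chromosome 21 with 3.30% and 3.42%. The limits of the group were chosen on these same peaks, so the count of chromosomes is no separate support. The highest scores of this kind were 1840 on chromosome 3 (6485951 to 6486530), 1389 on chromosome 20 (7116971 to 7117560) and 1200 on chromosome 14 (5839731 to 5840310). The one on chromosome 20 was 475 kb from its nearer neighbour. The peak of 630 bp on chromosome 10 that scored 12322 was centred too but lay outside the width range of the group.

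Isolated peaks were often much farther from their neighbours than the 10 kb that chose them. The gap to the nearer peak had a median of 50.5 kb (quartiles 20.2 and 122 kb), and 30.2% of members had no other peak within 100 kb. The gap on the other side had a median of 231 kb (quartiles 104 and 438 kb). For members with a peak on both sides, the farther gap was a median of 3.18 times the nearer one. The nearer peak lay to the left in 50.3% of these 2674 members (48.4 to 52.2), and 12 members were the first or last peak of a chromosome.

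The 5 most remote members scored between 47 and 203. The gap to the nearer peak reached 1332 kb around a peak of 310 bp on chromosome 18 (10816121 to 10816430), which scored 77. On chromosome 8 (32834231 to 32834760) a peak of 530 bp with a score of 203 stood 1127 kb from the nearer peak. Others with scores of 122, 189 and 47 lay on chromosomes 17 (17675891 to 17676380, 1098 kb), 12 (46251781 to 46252870, 953 kb) and 20 (50212471 to 50212850, 915 kb). Thus 3 of the 5 most remote members scored above the members' median of 86 and 2 below it.

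Beyond the limit, distance and score were nearly unrelated. Members 10 to 20 kb from the nearer peak had a median score of 79 (interval 74 to 85). The median was 86 in each of the 4 classes from 20 to 500 kb and 107 (79 to 127) in the 56 members beyond 500 kb. Across members, rho between gap and score was 0.0633, and between gap and width −0.0607. Over all widths, the median score showed no step at 10 kb. Clustered narrow peaks 5 to 10 kb from the nearer peak had a median score of 81 (75 to 86). Their median width was 710 bp, against 620 bp for members at 10 to 20 kb, and scores were not compared here at equal width. The 100 of these clustered peaks on chromosome 22 had a median score of 127.5. Median scores were lower closer in, with 56 (54 to 59) at 1 to 2 kb. Compact centred peaks, in contrast, were more frequent on the isolated side of the limit, with 31 of 989 clustered peaks at 5 to 10 kb and 40 of 667 members at 10 to 20 kb. Their share was 6.43% to 14.3% of members from 20 kb upward.

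**Figure D3:**
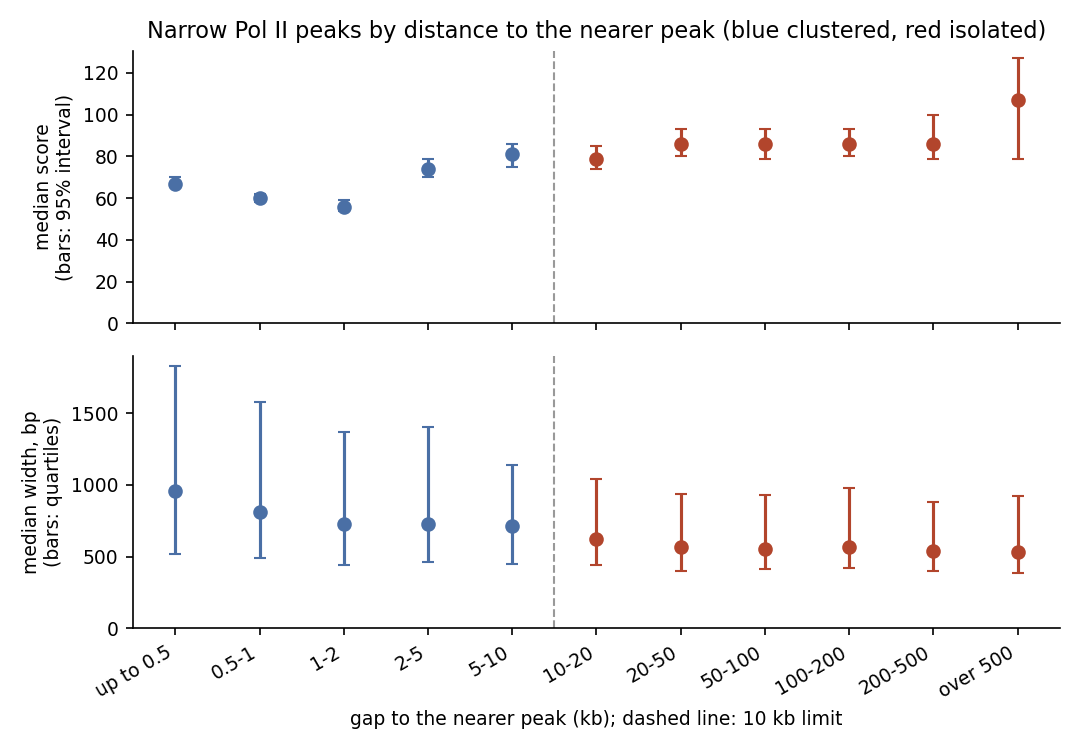
Narrow Pol II peaks in classes of the gap to the nearer peak; blue, clustered; red, isolated. Top, median score with its 95% interval; bottom, median width with quartiles. Scores of 79 at 10 to 20 kb and 81 at 5 to 10 kb sit side by side across the dashed 10 kb limit, and the lowest median is 56 at 1 to 2 kb.

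Median scores just inside and just outside the distance limit were close, while the median width was lower inside. No interval was computed for these medians. The 104 members with a gap of up to 11 kb scored 74 at the median and were 585 bp wide, and the 143 narrow peaks just excluded, with a gap over 9 kb, scored 73 and were 690 bp wide. The closest members were neighbours of each other on chromosome 22 (2483831 to 2484490, score 80, and 2494501 to 2496640, score 178), 10010 bp apart. At a gap of exactly 10000 bp, peaks on chromosomes 12 (16440361 to 16440840), 13 (37548871 to 37549200) and 6 (55312231 to 55312760) were left out, with scores of 43, 39 and 57. At the width limit, the 22 members of 4000 bp or more had a median score of 672.5, and the 32 isolated peaks of 5000 to under 6000 bp had 765.5. The widest members were 4980 bp on chromosome 22 (11726231 to 11731210, score 455) and 4930 bp on chromosome 9 (13379121 to 13384050, score 542), followed by the peak of 4880 bp on chromosome 1 named above. The narrowest isolated peaks left out measured 5000 bp on chromosome 20 (37010151 to 37015150, score 1151), 5020 bp on chromosome 2 (48396801 to 48401820, score 557) and 5060 bp on chromosome 6 (6224321 to 6229380, score 636).

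Isolated peaks had another isolated narrow peak as their nearest neighbour about as often as a clustered one. The nearest peak was itself a member for 1265 members, or 47.1% (45.2 to 49.0), and a clustered narrow peak for 44.4%. Of all 16718 peaks on these chromosomes, 2686 were members and 12595 were clustered narrow peaks. Only the outer peaks of a cluster can be nearest to a member, so these counts give no expected share. The nearest peak was one of 5000 bp or more for the other 132 (clustered) and 96 (isolated) members. The members' own median score was 83 to 86.5 whichever kind of peak was nearest. The nearest peak scored higher than the member in 54.4% of cases (52.5 to 56.3). This pools unlike neighbours. Nearest narrow peaks had median scores of 85 (clustered) and 88 (isolated). Nearest peaks of 5000 bp or more had 798.5 (clustered) and 1228.5 (isolated). Members formed 1448 uninterrupted runs along the chromosomes, of which 800 held a single member and 69 held 5 or more. The longest run was 13 isolated peaks over 4736 kb of chromosome 18 (26830081 to 31566490), with scores of 35 to 970 and a median of 131. The next was 9 peaks over 3892 kb of chromosome 5 (47128881 to 51020550), with a median of 159.

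Isolated peaks were spread over all 24 chromosomes. Their density was 2.13 per Mb over 1261 Mb and ranged from 1.69 on chromosome 9 (96 members) to 3.42 on chromosome 22 (134 members). The span of a chromosome was taken to the end of its last peak. Chromosome 22 held 1.60 times the number expected from its span (exact binomial interval 1.35 to 1.89) and chromosome 3 held 1.27 times (1.09 to 1.47), while the interval was below 1 on chromosome 9 alone (0.795, 0.646 to 0.967). These intervals treat peaks as independent and are too narrow, and the chromosomes named are the extremes of 24. Clustered narrow peaks departed in the same direction on all of these. Their number was 1.61 times that expected from the span on chromosome 22, 1.54 times on chromosome 3 and 0.652 times on chromosome 9. Isolated peaks were 14.9% of the narrow peaks of chromosome 3 and 20.6% of those of chromosome 9.

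The density of members varied less between chromosomes than that of clustered narrow peaks, with a coefficient of variation of 17.4% against 23.2% (12.5% and 20.5% without chromosome 22). This order depended on the distance limit. It is also not independent of the rule, which takes members singly and clustered peaks in groups. With isolation set at 5 kb the values were 25.9% and 21.6%, and the excess on chromosome 22 was 2.05 for isolated and 1.47 for clustered peaks. Both densities rose together over the 24 chromosomes (Pearson's r 0.705, Spearman's rho 0.475), but r was 0.330 without chromosomes 3 and 22. In the 114 full bins of 10 Mb, members numbered 10 to 45, with a median of 21, and clustered peaks 35 to 351, with a median of 90. Both were highest in the first 10 Mb of chromosome 22.

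The share of narrow peaks that stood alone differed between chromosomes. It was highest on chromosome 18, at 24.1% (20.2 to 28.3), and lowest on chromosome 21, at 13.5% (11.0 to 16.3), with a median of 18.0%. These are the extremes of 24 values. The intervals treat peaks as independent and are too narrow here. In bins of 10 Mb the variance of the counts was 1.58 times their mean for members and 18.6 times for clustered peaks. Chromosome 18 had a usual density of members, 2.16 per Mb, but few clustered narrow peaks, 6.81 per Mb against a median of 9.86. Chromosome 21 had 1.98 members and 12.7 clustered peaks per Mb. Median scores of members ranged from 69 on chromosome 24 to 107 on chromosome 17. Along the chromosomes, each of 10 equal parts of the span held between 8.34% and 11.5% of members, with the highest share in the last (10.4 to 12.8). The first held 12.5% of clustered peaks and 11.2% of members.

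**Figure D4:**
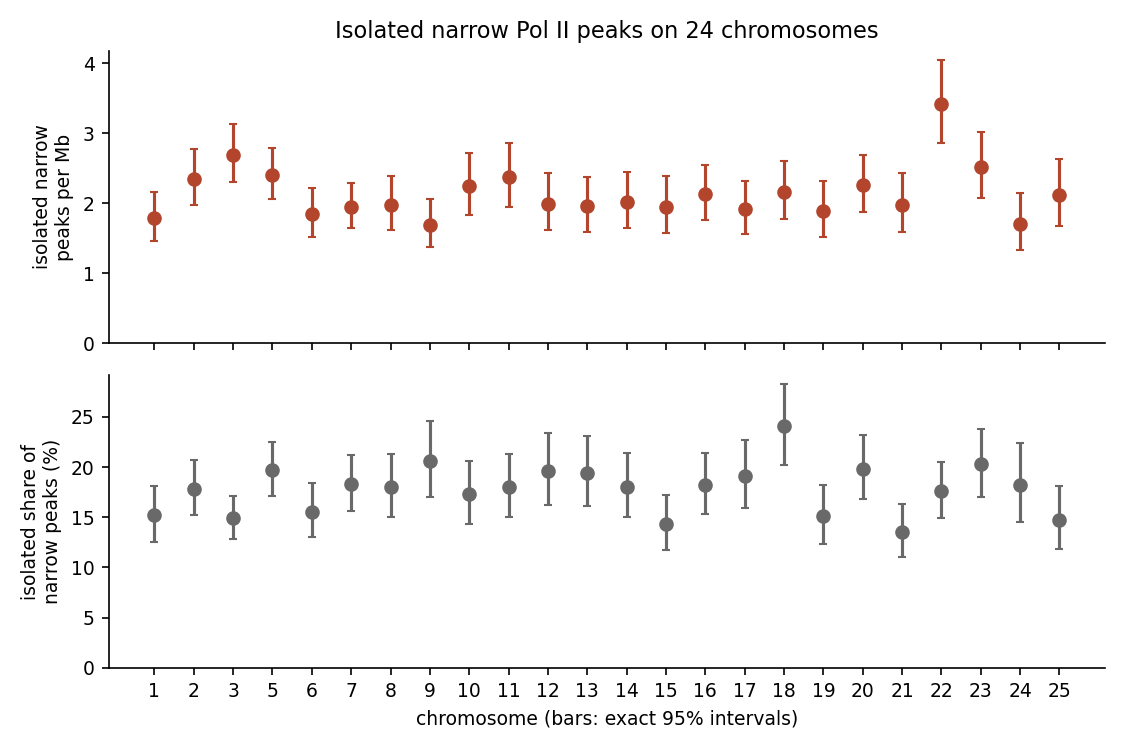
Top, isolated narrow peaks per Mb on each of the 24 chromosomes with exact Poisson intervals; bottom, share of the narrow peaks of each chromosome that are isolated with exact binomial intervals. Chromosome 22 has the highest density, 3.42 per Mb, and chromosome 18 the highest isolated share, 24.1%.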

How the data were processed

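Pol II ChIP-seq of 4 hpf zebrafish embryos was analysed from 1 deposited peak list; the input sample had no file. Per the study's methods, the authors aligned reads to Zv10 (GRCz10) with Novoalign 2.8, placing a read with several equally good positions at random, so a peak in repeated sequence can stand for another copy. They merged technical replicates with SAMtools and found peaks with a multi-replicate wrapper of MACS2 against input. The deposited score is an integer, read here as 10 times the highest −log10 q because its lowest value is 20; the list does not state this. Bounds are multiples of 10 bp. The list's 3 columns for fold enrichment, p and q hold 0 throughout and were not used. The effect of the duplicate option they set was not determined. Depth is not given in the list.

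Positions are counted from 1. A neighbour at exactly 10000 bp counted as near. Intervals of shares are Clopper-Pearson, those of densities Poisson, and those of medians come from binomial order statistics. Regions named were the 10 highest scoring, 5 most remote, 3 widest and 3 narrowest members and those at the limits; the longest runs and the compact peaks were chosen after their values were seen. Members and measures were chosen with earlier results of these data known. The splitting of peaks was tested on simulated data. Alternatives changed the gap (5 or 20 kb), the width limit (2000 bp), the score minimum (46), merging within 500 bp, and the cluster and end peaks used. Python 3.11.15, pandas 2.3.3 and scipy 1.17.1 were used.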

Additional observations from a re-analysis of the deposited data

How the results depend on the processing

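Of 40 values recomputed under alternatives, 27 stayed within 1.5 times (counts) or within their interval. The number of members stayed between 2019 (20 kb) and 3675 (5 kb) under all 7. Their share of narrow peaks moved more widely than its interval, from 17.6% to 13.2% with a 20 kb limit. It was 24.0% with a 5 kb limit, 24.9% with the score minimum and 25.4% with peaks merged within 500 bp. The median score of members moved to 81 with narrow peaks under 2000 bp (56 for clustered) and to 100 with peaks at or above a score of 46 (93 for clustered), and its order against clusters reversed with 1 peak per cluster (86 against 185), since that takes the best of several. The median width became 600 bp with a 5 kb gap, 550 bp under 2000 bp, 690 bp with the score minimum and 610 bp with peaks merged within 500 bp, and stayed below the clustered median under all 7. Central summits fell to 72.1% with merged peaks (62.6% clustered). The median gap was 25.3 kb with a 5 kb and 76.7 kb with a 20 kb limit, which follows from the limit. The excess on chromosome 22 was 2.05 with a 5 kb limit, above the 1.47 of clustered peaks, and at or below theirs otherwise. The share of compact centred peaks, where both alternatives were added after seeing the data, was 8.64% with widths of 480 to under 640 bp (3.62% clustered) and 8.82% with summits within 10% of the centre (4.22% clustered). Both alternatives contain the peaks of the main definition. Analyses at start sites, of sequence and with reference chromosome lengths were not run, for want of a genome of this build. No paired analysis was possible because the libraries were pooled in 1 list, and no replicate could be left out.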

Other observations

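Chromosome 22 held the most narrow peaks just short of isolation, largely in its first 4 Mb. Of 989 narrow peaks whose nearest neighbour lay 5 to 10 kb away, 100 were on chromosome 22, the most of any chromosome, followed by 74 on chromosome 3. Chromosome 22 also held 629 of all 12595 clustered narrow peaks. Its first 10 Mb held 351 of them and 45 members, the most of any bin of 10 Mb. How far the count of 100 follows from this density was not tested. Of the 100, 76 lay in the first 4 Mb, where 21 members lay as well. These 76 peaks scored 118.5 at the median, were 895 bp wide and stood 7285 bp from the nearer peak. A 5 kb limit adds all 100 to the isolated set. This stretch was chosen after its values were seen.

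Isolated peaks of 5000 bp or more had another shape than the narrow ones. The 236 on the same chromosomes scored 1187 at the median and were 8995 bp wide. Their summit lay within 10% of the width from a bound in 48.3% (41.8 to 54.9), against 2.72% of isolated narrow peaks. It did so in 38.5% (35.7 to 41.3) of the 1201 clustered peaks of this width. In bp the outer 10% is a longer stretch in the wide peaks than in members, whose median width was 570 bp. The contrast is therefore one of position relative to width. Gaps were alike in size, with a median of 56.5 kb to the nearer peak (interval of the median 47.0 to 73.6) against 50.5 kb (46.6 to 53.8).

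Isolated narrow peaks outside the 24 chromosomes also had a higher median score than clustered ones, but scores were not compared there at equal width. On chromosome 4, 306 had a median of 94 (82 to 108) against 76 (73 to 79) for 2547 clustered peaks, and 10.7% of narrow peaks there were isolated (9.61 to 11.9). In contrast to the other chromosomes, the isolated peaks of chromosome 4 were not narrower, with a median width of 850 bp (780 to 980) against 780 bp (750 to 820). Compact centred peaks were 3.92% (2.04 to 6.75) of the isolated and 3.34% (2.67 to 4.11) of the clustered narrow peaks of chromosome 4. The intervals of these shares overlap, but they cover counting error only and are no test of a difference. On unplaced scaffolds, 116 isolated narrow peaks had a median score of 107 (81 to 133) against 72.5 (66 to 80), where short scaffolds leave most peaks without a neighbour to measure: a gap could be given for only 35 of them.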
